A study of Mus musculus with 12 samples.

Results

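Macrophage identity genes were followed in the aorta of 12 mice as a set of 10 genes, chosen by the gene name that the array gives each probe. The set holds a growth factor of macrophages (Csf1), its receptor (Csf1r), surface proteins (Emr1, Itgam, Fcgr1 and Ptprc) and proteins of the lysosome or cytoplasm (Cd68, Lyz2, Mpeg1 and Aif1). The names matched 20 probes, of 55675 probes with 34796 gene names on the array. All 10 genes, through 16 of the 20 probes, passed the filter for signal above background and were among the 20026 genes and 27801 probes tested.

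C57BL/6J mice, per the study's methods males aged 11 to 14 weeks, were studied in 4 groups of 3, with 1 array per mouse and aortas taken on day 3. DMSO mice received the vehicle dimethylsulfoxide by intraperitoneal injection once daily, and rapamycin mice received the mTOR inhibitor rapamycin at 2 mg/kg/day in that vehicle. BA+DMSO mice received the vehicle with β-aminopropionitrile (BAPN, 150 mg/kg/day), which blocks collagen crosslinking, and angiotensin II (AngII, 1 µg/kg/min), which together lead to aortic dissection. BA+rapamycin mice received BAPN and AngII with rapamycin. All 12 mice therefore received DMSO. The submitters put the word Pre before the DMSO sample titles, although day 3 is given for every sample. RNA came from whole pieces of the aorta with no sorting of cells.

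Macrophages live in the healthy vessel wall as resident cells, and monocytes from the blood enter an injured wall and become macrophages there. The receptor Csf1r, bound by Csf1 or by interleukin 34, carries the signal on which macrophage survival and growth depend, and the transcription factor PU.1 drives many genes of the lineage. None of the 10 genes is made by macrophages alone, since Csf1 comes largely from stromal cells, Itgam, Lyz2 and Fcgr1 are also used by neutrophils or monocytes, and Ptprc is found on all white blood cells.

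Levels are given as log2 of the processed signal of a probe minus the 75th percentile of its own array, so that 0 is the brightness of that percentile and a step of 1 is a fold of 2. Levels of different probes cannot be ranked against each other. The tissue label held on all 12 arrays, since the smooth muscle gene Acta2 averaged 9.83 in DMSO and 10.1 in BA+DMSO, with all 10 smooth muscle markers above background. The 75th percentile of intensity was 221 to 280 in DMSO, 257 to 337 in rapamycin, 78.1 to 246 in BA+DMSO, and the lowest, 74.6 to 109, were the BA+rapamycin arrays. Arrays of a group correlated across probes at 0.987 or more in DMSO and rapamycin, at 0.974 to 0.982 in BA+rapamycin, and least, at 0.912 to 0.961, in BA+DMSO. The 3 DMSO arrays and rapamycin replicate 1 lay on 1 slide and the other 8 arrays on the other, so challenge and slide cannot be told apart in BA+DMSO against DMSO. P values come from limma, adjusted by the Benjamini-Hochberg method over all 27801 probes, and measure the spread between these 12 mice.

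The BAPN + AngII challenge raised 8 of the 10 genes (adjusted p under 0.05), while 10.4% of all genes tested were called higher. Cd68 (6.21-fold), Lyz2 (5.28-fold), Emr1 (5.27-fold), Aif1 (4.97-fold), Fcgr1 (4.68-fold), Ptprc (3.47-fold), Mpeg1 (3.46-fold) and Csf1r (3.11-fold) rose. Csf1 was 1.45-fold higher and did not pass (adjusted p = 0.0795). Itgam did not pass by its brightest probe, which carries a repeat, and passed by its other probe, which makes the count 9. The median difference of the 10 genes was 2.01, against -0.023 over all genes tested, and 10 of 10 genes were above 0, where 48.6% of all genes were. Every array of BA+DMSO lay above every array of DMSO for 8 genes, or 9 with the other Itgam probe, against 15.4% of all genes. With the slide as a fixed block the count was 0 of 10 (median 1.73, 0.0549% of all genes called higher), and with array weights it was 0 of 10 (median 1.77, 0.429% of all genes). In RNA from a whole aorta, more macrophages and more RNA of these genes per cell cannot be told apart.

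**Figure D1:**
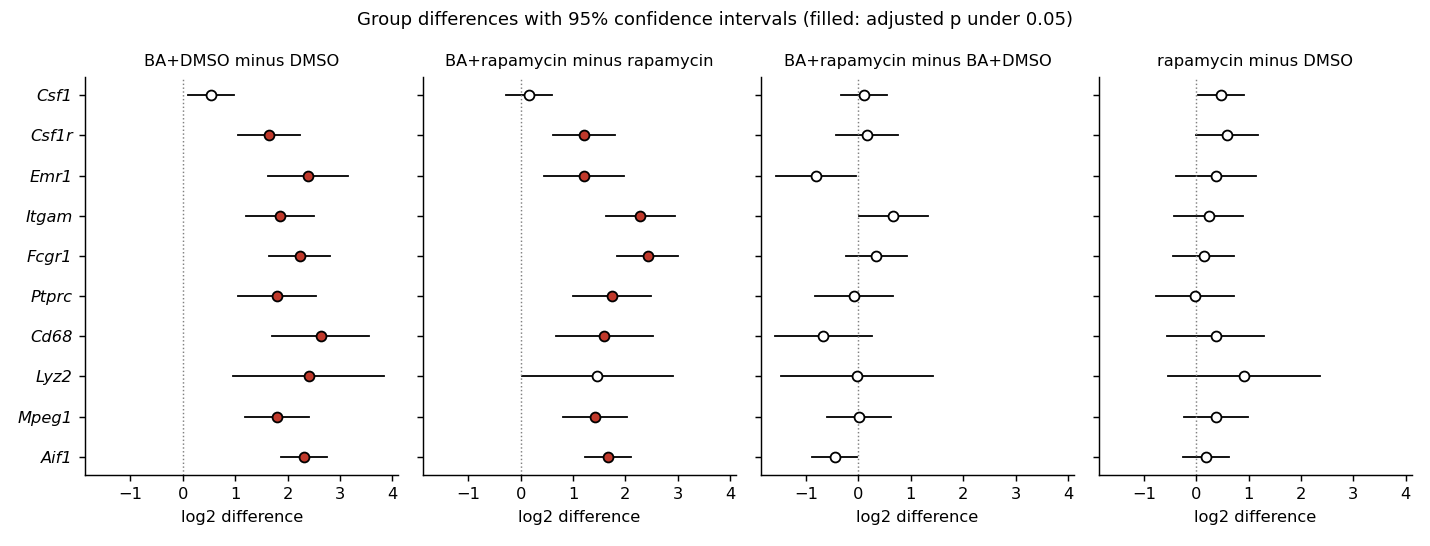
Log2 differences of the 10 genes (x axis, log2 units, with 95% confidence intervals from limma) in 4 contrasts, with filled points where the adjusted p was under 0.05. Itgam is drawn by the probe that carries no repeat, so that 9 genes are filled in the challenge, and in rapamycin under challenge and rapamycin alone none is.

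Csf1, the colony-stimulating factor that macrophages need, is a secreted ligand. Its brightest probe (mm9, chr3:107544333-107544392, minus strand, base 3749 of its transcript) read 2.28, 2.43 and 2.73 in DMSO, 2.96, 2.79 and 3.13 in rapamycin, 3.06, 3.25 and 2.74 in BA+DMSO, and 3.24, 2.89 and 3.25 in BA+rapamycin, in the order of replicates 1 to 3. The DMSO arrays were the lowest, with DMSO replicate 3 at 2.73 just below BA+DMSO replicate 3 at 2.74, and the other groups overlapped. The challenge moved this probe by 0.53 ± 0.20 (SE; 95% interval 0.098 to 0.97), and rapamycin alone by 0.48 ± 0.20 (adjusted p = 1).

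Csf1 is also read by 2 probes near base 2227 and base 2256 of another annotated transcript, which overlap on the genome (chr3:107548550-107548609 for the first) and are not independent of each other. The probe at 2227 read 0.61, 0.37 and 0.32 in DMSO, 0.91, 1.26 and 1.19 in rapamycin, 0.83, 0.75 and 0.82 in BA+DMSO, and 0.57, 0.36 and 0.73 in BA+rapamycin. Its order was rapamycin at the top, then BA+DMSO, then BA+rapamycin and DMSO, which overlapped. The challenge under rapamycin, which is BA+rapamycin minus rapamycin, lowered Csf1 by these probes, by -0.57 ± 0.17 at base 2227 (adjusted p = 0.0216) and -0.53 ± 0.15 at base 2256 (adjusted p = 0.0155). The brightest probe gave 0.16 ± 0.20 for the same contrast (adjusted p = 0.518), so the probes of Csf1 disagreed. Against DMSO, rapamycin moved them by 0.69 (adjusted p = 0.582) and 0.68 (adjusted p = 0.499), with no overlap between the groups.

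**Figure D2:**
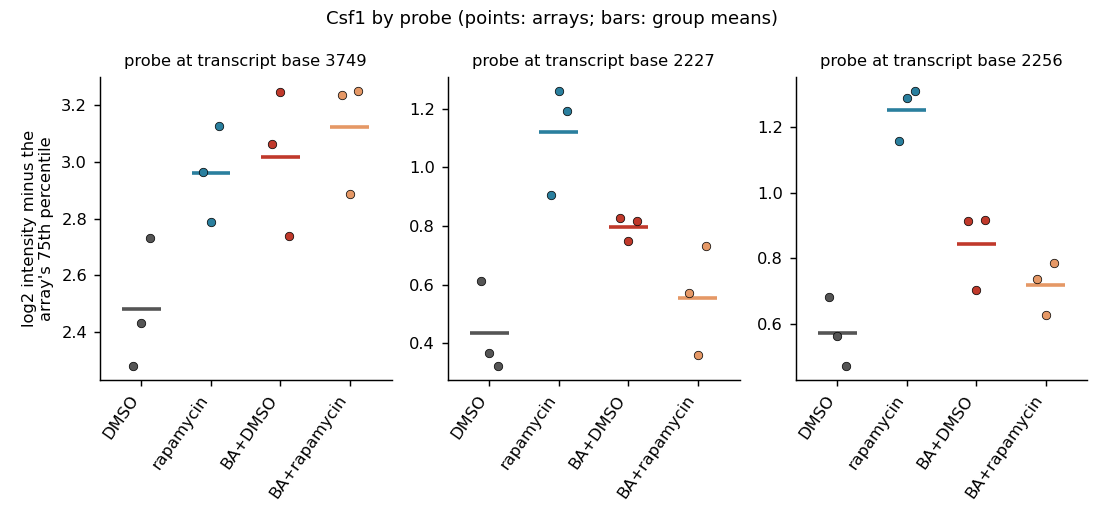
Level of 3 Csf1 probes on each of the 12 arrays (y axis, log2 of signal minus the 75th percentile of the array), named by their base in the transcript. The probes at 2227 and 2256 are highest in rapamycin and fall back in BA+rapamycin, while the probe at 3749 stays between 2.79 and 3.25 in both groups.

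Csf1r, the tyrosine kinase receptor for that ligand, read 4.66, 3.99 and 3.99 in DMSO, 4.64, 4.89 and 4.86 in rapamycin, 6.45, 5.41 and 5.69 in BA+DMSO, and 6.03, 6.05 and 5.95 in BA+rapamycin. Both challenged groups lay above both unchallenged groups without overlap, and within each pair the arrays overlapped. The challenge raised it by 1.64 ± 0.27 (adjusted p = 0.00269), and the challenge under rapamycin by 1.21 ± 0.27 (adjusted p = 0.0064). Another probe, at base 2871, rose by 1.70 (adjusted p = 0.00791), whereas the probe at base 1841 gave 0.36 (adjusted p = 0.237). In the challenge under rapamycin neither of these passed, at 0.80 (adjusted p = 0.0861) and 0.35 (adjusted p = 0.183).

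Emr1 encodes F4/80, the adhesion receptor used to stain mouse macrophages, and is now named Adgre1. Its brighter probe (chr17:57622868-57622927, plus strand) read 0.64, -0.20 and -0.50 in DMSO, 0.18, 0.31 and 0.57 in rapamycin, 2.95, 1.62 and 2.56 in BA+DMSO, and 1.59, 1.59 and 1.52 in BA+rapamycin. BA+DMSO was the highest group, BA+rapamycin came next with its highest array just below the lowest BA+DMSO array, and DMSO and rapamycin overlapped below. Emr1 rose by 2.40 ± 0.35 in the challenge (adjusted p = 0.00147) and by 1.22 ± 0.35 in the challenge under rapamycin (adjusted p = 0.0186). The latter call was lost within 1 slide, with the slide as a fixed block, and without rapamycin replicate 1, rapamycin replicate 2 or BA+rapamycin replicate 2 (adjusted p up to 0.0787). The second probe of Emr1 rose by 2.74 (adjusted p = 0.00392) and differed by 1.00 (adjusted p = 0.115) in the same contrasts.

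Fcgr1 encodes CD64, the receptor that binds single IgG molecules with high affinity. Its probe (chr3:96086839-96086898, minus strand) read -2.18, -2.26 and -2.57 in DMSO, -2.15, -1.90 and -2.54 in rapamycin, 0.38, -0.48 and -0.24 in BA+DMSO, and 0.57, 0.12 and -0.0033 in BA+rapamycin. The unchallenged arrays all lay below the challenged arrays, and here BA+rapamycin had the higher mean of the challenged groups, with overlap. The rise was 2.23 ± 0.26 in the challenge (adjusted p = 0.000591) and 2.42 ± 0.26 in the challenge under rapamycin (adjusted p = 0.000216).

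Itgam encodes CD11b, the alpha chain of an integrin of myeloid cells. Bases 1 to 30 of its brightest probe (chr7:135261755-135261814, plus strand) and bases 16 to 45 of its other tested probe (chr7:135260275-135260334) are shown because the first opens with a run of 20 bases of alternating C and A, in capitals, that many other transcripts hold.
Itgam repeat probe: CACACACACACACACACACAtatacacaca
Itgam other probe: taccactcattgtgggcagctccattgggg
The repeat probe shares a stretch of 16 bases with probes of 39 other gene names, and the other probe with 0.

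The other Itgam probe read -2.99, -2.58 and -2.82 in DMSO, -2.84, -1.98 and -2.86 in rapamycin, -0.55, -0.74 and -1.53 in BA+DMSO, and -0.19, -0.14 and -0.49 in BA+rapamycin. All challenged arrays lay above all unchallenged ones, and each BA+rapamycin array lay above each BA+DMSO array. This probe rose by 1.86 ± 0.30 in the challenge (adjusted p = 0.00242) and by 2.29 ± 0.30 in the challenge under rapamycin (adjusted p = 0.000541).

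The Itgam repeat probe read 6.38, 6.45 and 6.90 in DMSO, 6.48, 6.69 and 6.27 in rapamycin, 7.84, 8.74 and 6.53 in BA+DMSO, and 8.14, 8.67 and 8.38 in BA+rapamycin. BA+DMSO replicate 3 lay among the unchallenged arrays on this probe and above them on the other probe. The challenge gave 1.13 ± 0.44 (adjusted p = 0.0906) and the challenge under rapamycin 1.92 ± 0.44 (adjusted p = 0.00694). Over the 12 arrays the probe correlated at 0.999 with the median of the 21 other probes that carry such a run, and at 0.903 with the other Itgam probe. The 21 other run probes had challenge differences of 0.92 to 1.97, and none was called. With array brightness as a covariate, the repeat probe differed by -0.0033 in the challenge (adjusted p = 0.991) and the other probe by 1.42 (adjusted p = 0.0184). The other probe is used for Itgam below wherever it is named.

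**Figure D3:**
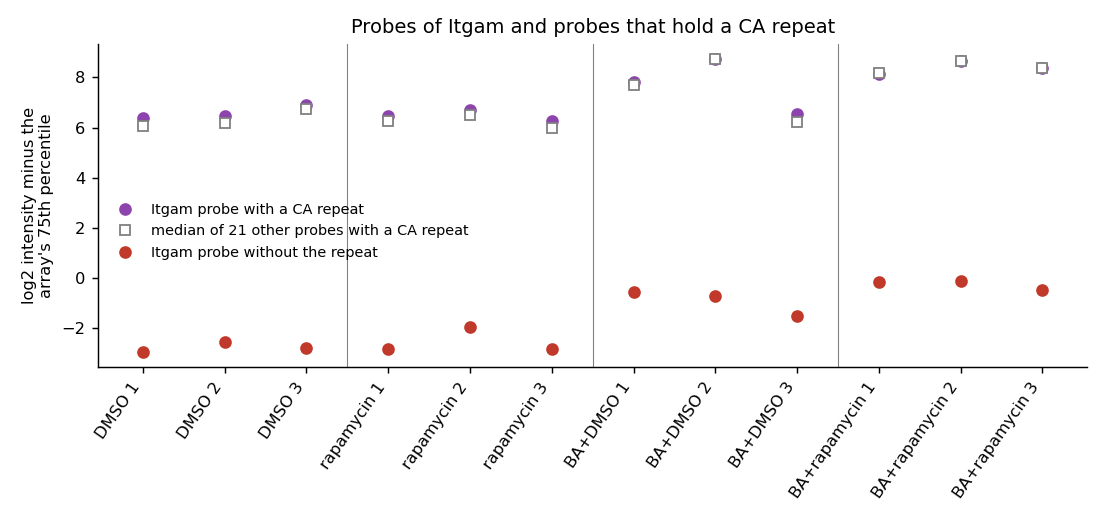
Level of the Itgam repeat probe, the Itgam probe without a repeat, and the median of the 21 other probes with a run of alternating C and A on each of the 12 arrays (y axis, log2 of signal minus the 75th percentile of the array). The repeat probe and the other run probes lie close together on each array, with BA+DMSO replicate 2 at 8.74 and 8.75 and replicate 3 at 6.53 and 6.23.

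Ptprc encodes CD45, the phosphatase on the surface of white blood cells of every kind. Its probe (chr1:139961083-139961142, minus strand) read -2.46, -3.02 and -2.79 in DMSO, -2.94, -2.52 and -2.89 in rapamycin, -0.043, -1.49 and -1.34 in BA+DMSO, and -1.29, -0.86 and -0.98 in BA+rapamycin. BA+DMSO replicate 1 stood above every BA+rapamycin array and the other 2 BA+DMSO arrays stood just below them, and the unchallenged arrays all lay lower. The rise was 1.79 ± 0.34 in the challenge (adjusted p = 0.00528) and 1.74 ± 0.34 in the challenge under rapamycin (adjusted p = 0.00358).

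Among the intracellular proteins, Cd68 is a glycoprotein of the lysosome membrane. Its probe (chr11:69477775-69477834, minus strand) read 1.02, 0.16 and 0.21 in DMSO, 0.75, 0.78 and 0.97 in rapamycin, 3.84, 1.93 and 3.53 in BA+DMSO, and 2.53, 2.27 and 2.49 in BA+rapamycin. BA+DMSO replicate 2 was lower than every BA+rapamycin array and the other 2 BA+DMSO arrays were higher than all of them, so these groups overlapped. The challenge raised Cd68 by 2.63 ± 0.42 (adjusted p = 0.00232), and the challenge under rapamycin by 1.60 ± 0.42 (adjusted p = 0.0133).

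Lyz2, the lysozyme of myeloid cells, read 1.37, -0.98 and -0.74 in DMSO, 0.14, 0.63 and 1.62 in rapamycin, 3.10, 1.06 and 2.70 in BA+DMSO, and 2.15, 2.27 and 2.36 in BA+rapamycin. DMSO replicate 1 lay above BA+DMSO replicate 2, so Lyz2 alone of the 8 genes called had overlapping groups. Its rise of 2.40 ± 0.66 in the challenge (adjusted p = 0.0268) had the widest error of the set, and the challenge under rapamycin gave 1.46 ± 0.66 (adjusted p = 0.0927). Without DMSO replicate 2, without DMSO replicate 3 or without BA+DMSO replicate 1 the call in the challenge was lost. The probe (chr10:116719175-116719234, minus strand) shares 16 bases with a probe of 1 other gene name, and the array's probe for the close relative Lyz1 rose by 2.27 (adjusted p = 0.00371).

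Mpeg1 encodes perforin-2, a pore-forming protein of phagocytes. Its brighter probe (chr19:12539387-12539446, plus strand) read -0.23, -0.45 and -0.79 in DMSO, -0.050, -0.11 and -0.18 in rapamycin, 1.94, 0.82 and 1.13 in BA+DMSO, and 1.42, 0.98 and 1.53 in BA+rapamycin. The challenged groups overlapped and lay above both unchallenged groups, of which rapamycin was the higher without overlap. The rise was 1.79 ± 0.28 in the challenge (adjusted p = 0.00204) and 1.42 ± 0.28 in the challenge under rapamycin (adjusted p = 0.00361).

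Aif1 encodes Iba-1, a calcium-binding protein that bundles actin in activated macrophages. Its probe (chr17:35307959-35308018, minus strand) read 1.29, 0.89 and 0.60 in DMSO, 0.92, 1.24 and 1.20 in rapamycin, 3.41, 3.08 and 3.25 in BA+DMSO, and 2.90, 2.71 and 2.76 in BA+rapamycin. Each BA+rapamycin array lay below each BA+DMSO array, and DMSO and rapamycin overlapped below both. Aif1 rose by 2.31 ± 0.20 in the challenge (adjusted p = 0.000126), the smallest adjusted p of the set in that contrast, and by 1.67 ± 0.20 in the challenge under rapamycin (adjusted p = 0.000335).

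**Figure D4:**
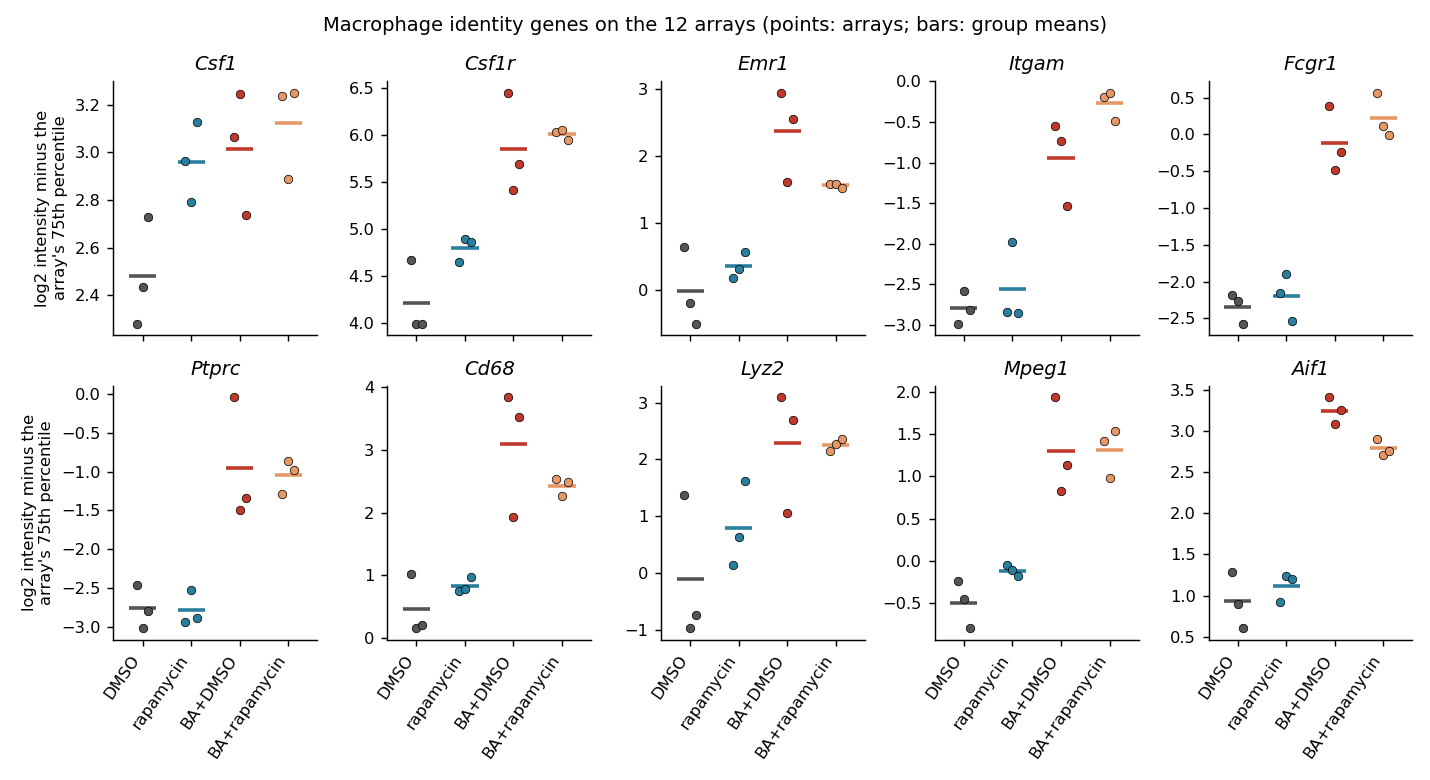
Level of each of the 10 genes on each of the 12 arrays (y axis, log2 of signal minus the 75th percentile of the array; one panel per gene, Itgam by the probe without a repeat), with group means. Points of BA+DMSO are spread more widely than those of BA+rapamycin, as for Cd68 between 1.93 and 3.84 against 2.27 and 2.53.

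The challenge under rapamycin raised 8 of the 10 genes, where 19.8% of all genes tested were called higher. Csf1 and Lyz2 did not pass, and Itgam passed by both probes. The median difference was 1.53, and 9 genes had groups that did not overlap, against 31.2% of all genes. By the rule of the study's methods (unadjusted p under 0.01 and a fold over 4), 5 genes passed in the challenge, against 2.09% of all genes, and 2 passed in the challenge under rapamycin, Fcgr1 at 5.37-fold and Itgam at 4.88-fold, against 3.88%. Within the slide that holds all BA+rapamycin arrays, which leaves 2 rapamycin arrays for comparison, 4 of the 10 genes were called (Aif1, Ptprc, Mpeg1 and Fcgr1, against 6.32% of all genes), or 5 with Itgam by its other probe. With array brightness as a covariate 5 of the 10 were called (Emr1, Cd68, Aif1, Mpeg1 and Fcgr1, against 5.12% of all genes), and Csf1r (1.48, adjusted p = 0.0919), Ptprc (1.71, adjusted p = 0.134) and Itgam (1.52, adjusted p = 0.0764) no longer passed.

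The 9 genes other than Csf1 rose and fell together over the 12 arrays. With Itgam by its other probe, a choice made after its values were seen, their 36 pairwise correlations lay between 0.68 and 0.99 with a median of 0.92, and between -0.29 and 0.93 with a median of 0.65 once group means were removed. Csf1 correlated with the other 9 at 0.43 to 0.62, and at -0.50 to 0.075 within groups. The repeat probe of Itgam correlated less with the other genes, at 0.45 with Lyz2 and 0.79 with Fcgr1 over the arrays and at -0.69 with Cd68 within groups. These values describe 12 arrays that share groups, slides and scaling. The median of the 10 genes relative to the DMSO mean was -0.25 to 0.33 in DMSO, 0.23 to 0.41 in rapamycin, 1.82 to 1.94 in BA+rapamycin and 1.39 to 2.59 in BA+DMSO.

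Promoters of 8 of the 10 genes, all but Emr1 and Csf1r, were read for this shared movement. They were taken as the 250 bases before the start site given by RefSeq (GRCm38.p6). They were searched on both strands for GAGGAA (the core bound by PU.1), TGANTCA (AP-1), TGACNTCA (the cyclic AMP response element) and a motif of NF-kappa B. GAGGAA was present in 5 of the 8 genes (Cd68, Aif1, Itgam, Ptprc and Fcgr1), against 23.3% of 32851 promoters. The PU.1 core was absent from Csf1 and from Lyz2 and Mpeg1, which also rose in the challenge and whose promoters are not shown. TGANTCA was found in Cd68 alone (6.75% of all), TGACNTCA in Aif1 and in another start of Ptprc (7.49% of all), and the NF-kappa B motif in Csf1 alone (1.41% of all). The promoters of Cd68 (chr11:69666171-69666420, minus strand), Itgam (chr7:128062390-128062639, plus strand) and Fcgr1 (chr3:96293970-96294219, minus strand) are shown as members that rose with a PU.1 core, and that of Csf1 (chr3:107760470-107760719, minus strand) as the member that did not pass. Capitals mark the motif matches on either strand.
Cd68: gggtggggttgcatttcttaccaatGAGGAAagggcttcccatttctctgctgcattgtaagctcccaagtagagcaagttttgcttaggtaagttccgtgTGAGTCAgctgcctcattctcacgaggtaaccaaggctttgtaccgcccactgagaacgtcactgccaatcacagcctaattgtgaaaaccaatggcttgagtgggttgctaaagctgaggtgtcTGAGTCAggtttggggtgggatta
Itgam: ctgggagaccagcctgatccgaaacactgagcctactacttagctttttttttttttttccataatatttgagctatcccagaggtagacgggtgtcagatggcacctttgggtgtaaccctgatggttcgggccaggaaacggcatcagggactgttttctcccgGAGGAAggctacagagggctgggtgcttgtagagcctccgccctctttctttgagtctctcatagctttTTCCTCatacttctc
Fcgr1: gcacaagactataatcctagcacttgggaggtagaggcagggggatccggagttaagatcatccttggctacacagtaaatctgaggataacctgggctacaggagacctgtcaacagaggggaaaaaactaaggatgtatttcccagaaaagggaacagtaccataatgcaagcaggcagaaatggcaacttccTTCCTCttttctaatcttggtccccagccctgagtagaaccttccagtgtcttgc
Csf1: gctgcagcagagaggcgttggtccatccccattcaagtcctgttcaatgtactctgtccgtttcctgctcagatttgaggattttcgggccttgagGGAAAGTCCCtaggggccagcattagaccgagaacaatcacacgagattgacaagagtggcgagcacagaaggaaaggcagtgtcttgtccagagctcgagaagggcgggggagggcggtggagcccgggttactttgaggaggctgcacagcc
A match of letters is a description of the window and no site of binding. The Cd68 window holds GAGGAA and TGAGTCA, the latter at positions -149 and -24 from the start, and the Itgam window holds GAGGAA on each strand.

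BA+rapamycin was set against BA+DMSO to read the drug in the dissection model. None of the 10 genes was called by limma, where 0.305% of all genes were. At an unadjusted p under 0.05 there were 2, Emr1 and Aif1, or 3 with Itgam, against 20.5% of all genes. The median difference of the 10 was -0.0075, with 5 genes higher and 5 lower, where 48.2% of all genes were higher.

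The largest difference downward under rapamycin was that of Emr1, at -0.81 (95% interval -1.57 to -0.045, adjusted p = 0.232). Cd68 differed by -0.67 (-1.59 to 0.26, adjusted p = 0.351) and Aif1 by -0.45 (-0.89 to -0.020, adjusted p = 0.235). Emr1 and Aif1 had groups that did not overlap, 2 of 10 genes, where 8.08% of all genes were lower without overlap. The second probe of Emr1 gave -1.05 (adjusted p = 0.252) with overlapping groups.

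In the other direction stood Itgam at 0.67 (0.012 to 1.33, adjusted p = 0.243) and Fcgr1 at 0.34 (-0.24 to 0.92, adjusted p = 0.426). Itgam alone was higher without overlap, against 6.8% of all genes. For Csf1r the difference was 0.16 (-0.44 to 0.75), for Mpeg1 0.010 (-0.60 to 0.62), for Ptprc -0.083 (-0.83 to 0.66) and for Lyz2 -0.025 (-1.47 to 1.42). These intervals hold both lower and higher levels, so equal levels were not shown.

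The spread of BA+DMSO limits this contrast. BA+DMSO replicate 2 was the lowest of its group for 8 of the 10 genes and replicate 1 the highest for 9, with Itgam by its other probe. The range over 3 arrays was wider in BA+DMSO than in BA+rapamycin for 10 of 10 genes, as it was for 80.6% of all genes. For Emr1 the range was 1.33 against 0.067, for Cd68 1.91 against 0.26, and for Csf1r 1.04 against 0.098.

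Without BA+DMSO replicate 2, the array lowest for 8 of the 10 genes, Emr1 was lower by -1.19 (adjusted p = 0.0134) and Cd68 by -1.25 (adjusted p = 0.00627). In that fit 24% of all genes were called lower and 17% higher, and leaving out a low array moves the contrast downward, to a member median of -0.29. In the same fit Aif1 stayed just short at -0.54 (adjusted p = 0.0557), Itgam gave 0.77 (adjusted p = 0.0887), and Csf1r gave -0.063 (adjusted p = 0.857). Fcgr1 at 0.16, Mpeg1 at -0.23, Ptprc at -0.35 and Lyz2 at -0.64 were not called either. When instead BA+DMSO replicate 1, the highest for most of the genes, was left out, the median was 0.35 and 0 of the 10 were called.

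Differences between 2 probes on the same array do not change when a single value is subtracted from the whole array, as was done here. Only their change between groups can be read. They are not free of array brightness, which was lowest in BA+rapamycin. A Csf1 probe above background on no array averaged -6.05 in DMSO and -4.82 in BA+rapamycin. The part of brightness in the differences below was not tested. Fcgr1 minus Emr1 was -2.82, -2.07 and -2.07 in DMSO, -2.33, -2.21 and -3.10 in rapamycin, -2.57, -2.10 and -2.80 in BA+DMSO, and -1.02, -1.47 and -1.53 in BA+rapamycin. BA+rapamycin stood above the other 9 arrays. For Itgam minus Emr1 the BA+rapamycin arrays were again above the others, at -2.01 to -1.73 in BA+rapamycin and -4.09 to -2.29 on the other arrays.

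Csf1r minus Emr1 was 4.02 to 4.49 in DMSO, 4.29 to 4.58 in rapamycin, 4.42 to 4.46 in BA+rapamycin and 3.13 to 3.79 in BA+DMSO, which stood below the other 9 arrays. Cd68 minus Emr1 was 0.68 to 0.97 in BA+rapamycin, within the 0.30 to 0.97 of BA+DMSO. Ptprc minus Emr1 was -2.87 to -2.45 in BA+rapamycin, above BA+DMSO at -3.90 to -2.99 and within the DMSO range of -3.10 to -2.28. Emr1, the member with the largest difference downward, enters every pair, and the pairs were chosen after the values were seen, so they are descriptions with no test.

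**Figure D5:**
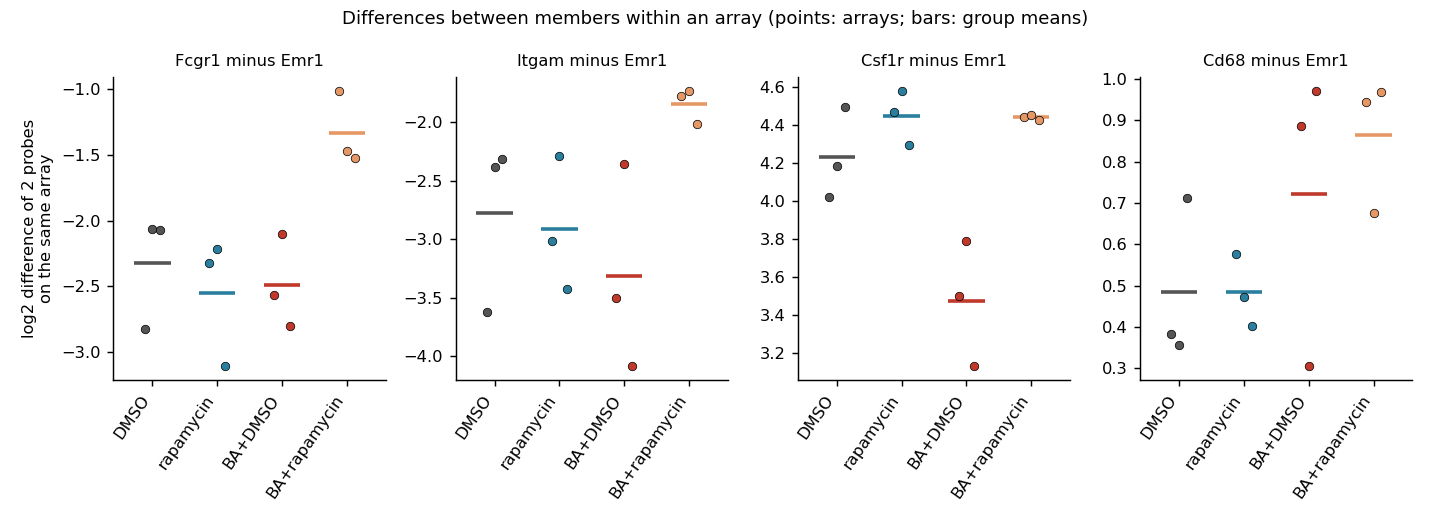
Level of Fcgr1, Itgam (probe without a repeat), Csf1r and Cd68 minus the level of Emr1 on the same array (y axis, log2 units), for each of the 12 arrays by group. Fcgr1 minus Emr1 is -1.53 to -1.02 in BA+rapamycin and -3.10 to -2.07 elsewhere, and Csf1r minus Emr1 is lowest in BA+DMSO.

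Rapamycin alone, against DMSO, called 0 of the 10 genes by limma, where 0.00499% of all genes were called. At an unadjusted p under 0.05 there was 1, Csf1, against 4.43% of all genes. Values ran from -0.029 for Ptprc to 0.91 for Lyz2, with Itgam at 0.24 by its other probe and a median of 0.37. They were above 0 for 8 of 10 genes, or 9 with the other Itgam probe, against 47.4% of all genes. On the other slide from DMSO lay 2 of the 3 rapamycin arrays, and with the slide as a fixed block the median was 0.23. Without DMSO replicate 3 the median was 0.18 with the repeat probe of Itgam and 0.23 with its other probe. Csf1 and Mpeg1 were higher without overlap, where 10.6% of all genes were. Csf1r differed by 0.58 (95% interval -0.0074 to 1.18). Erythroid markers ran from 0.58 for Slc4a1 to 1.61 for Hbb-b2 in this contrast, with none called, and their part was not tested.

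The interaction, rapamycin under challenge minus rapamycin alone, called 0 of the 10 genes by limma, where 0% of all genes were called. At an unadjusted p under 0.05 there were 2, Emr1 at -1.18 and Aif1 at -0.65 (adjusted p = 0.737 each), against 6.01% of all genes. Without BA+DMSO replicate 2, Emr1 (-1.56, adjusted p = 0.0427) and Cd68 (-1.62, adjusted p = 0.0335) were called, where 7.41% of all genes were called lower. The Csf1 probes at 2227 and 2256 gave -0.93 and -0.81 with all arrays (adjusted p = 0.499 each), and -0.95 (adjusted p = 0.038) and -0.88 (adjusted p = 0.0315) without that array.

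Other genes of the colony-stimulating factor family were read for comparison, 8 of 10 being tested with Csf1 and Csf1r among them. Csf2 and Csf3, the factors named for granulocytes and macrophages and for granulocytes, were above background on no array. The receptor chains for interleukin 3 and Csf2 rose in the challenge, with Csf2rb at 2.37 (adjusted p = 0.000899), Il3ra at 2.08 (adjusted p = 0.00037), Csf2rb2 at 1.72 (adjusted p = 0.00426) and Csf2ra at 0.98 (adjusted p = 0.00709). Il34, the second ligand of Csf1r, gave 1.08 (adjusted p = 0.0631), and the Csf3r probe, whose sequence is shared with probes of 6 other gene names, gave 0.44 (adjusted p = 0.444). Under challenge rapamycin moved Csf2rb2 by 1.06 (adjusted p = 0.132) and Il3ra by 0.73 (adjusted p = 0.144). Without BA+DMSO replicate 2 these were 1.19 (adjusted p = 0.0231) and 0.79 (adjusted p = 0.0277), with Csf2rb at 0.86 (adjusted p = 0.0768) and the Csf3r probe at 1.37 (adjusted p = 0.00676).

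Receptors and signalling partners of macrophages rose in the challenge, with 37 of 39 tested genes called higher (10.4% of all genes), 0 lower (11% of all genes) and a median of 2.38. This list and the lists that follow, like the 10 genes, were chosen with earlier results of these data known. Their counts are therefore descriptions and no test. The C-type lectin Clec4d rose by 3.66 (adjusted p = 0.000396) and the surface protein Cd52 by 3.04 (adjusted p = 0.000334). The tetraspanin Cd53 rose by 2.95 (adjusted p = 0.0199), with overlapping groups. Clec4d and Cd53 were above background on only 1 of 3 DMSO arrays each. The scavenger receptor Msr1 was at least 5.19-fold higher (adjusted p = 0.0014), a bound given because no DMSO array was well above background. Msr1 and Cd53 were above background on only 2 of 3 BA+DMSO arrays each. Msr1 and Clec4d passed the filter only through challenged groups, where they were high, so their calls are no independent support. Under rapamycin the challenge called 30 of the 39 higher (19.8% of all genes) and 1 lower (22.9% of all genes), with a median of 1.81. Rapamycin under challenge called none of the 39.

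Regulators of the lineage gave 4 genes higher and 1 lower of 12 tested in the challenge, with a median of 0.43, against 10.4% of all genes higher and 11% lower. Runx1 (2.01, adjusted p = 0.0105), Cebpa (1.88, adjusted p = 0.00347), Irf8 (1.57, adjusted p = 0.00418) and Irf5 (1.46, adjusted p = 0.00599) rose, all of them transcription factors of myeloid cells. They were named for having the largest challenge differences among called genes, and do not stand for the list. Of the 12, 8 were above 0 (48.6% of all genes), and their summed signal was 0.87 to 1.28 of the DMSO mean in BA+DMSO. The Cebpa probe shares a stretch of sequence with probes of 2 other gene names. Runx1 rose by 3.24 in the challenge under rapamycin (adjusted p = 0.000646).

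Genes of resident macrophages gave 14 of 18 higher and 0 lower in the challenge (10.4% and 11% of all genes), with a median of 1.77. Their summed signal, in which the brightest probes weigh most, did not rise in the same way. Relative to the DMSO mean it was 0.92 to 1.22 in BA+DMSO, 0.77 to 0.86 in rapamycin and 0.74 to 0.79 in BA+rapamycin. The sialic acid receptor Siglec1 rose by 3.23 (adjusted p = 0.000194), the complement chains C1qb by 2.55 (adjusted p = 0.00425) and C1qa by 2.53 (adjusted p = 0.0101), and Ms4a7 by 2.44 (adjusted p = 0.00202). In the challenge under rapamycin 6 were higher and 2 lower, against 19.8% and 22.9% of all genes. The median was 0.75, with Siglec1 at 3.15 (adjusted p = 0.000124), Ms4a7 at 1.32 (adjusted p = 0.0186) and C1qa at 0.78 (adjusted p = 0.26). Rapamycin under challenge called 0 of 18, with a median of -0.36. Without BA+DMSO replicate 2 it called 5 of 18 lower and 0 higher, against 24% and 17% of all genes, with Ms4a7 at -1.75 (adjusted p = 0.00528) and a median of -0.76.

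Monocyte genes gave 7 higher and 2 lower of 12 tested in the challenge (10.4% and 11% of all genes), with a median of 1.32. The lectin Chi3l3 rose by 3.47 (adjusted p = 0.00217), the chemokine receptor Ccr2 by 3.04 (adjusted p = 0.00782) and Plac8 by 2.51 (adjusted p = 0.00326). Chi3l3 and Ccr2 were above background on only 1 of 3 DMSO arrays each. Chi3l3 passed the filter only through the challenged groups, where it was high, so its call is no independent support. Nr4a1, a nuclear receptor that patrolling monocytes need and many stimulated cells induce, fell by 2.75 (adjusted p = 0.00109). Ccr2 rose by 4.28 in the challenge under rapamycin (adjusted p = 0.00093), and rapamycin under challenge moved it by 1.59 (adjusted p = 0.21). That contrast called none of the 12, and 3 of 12 lower without BA+DMSO replicate 2, where 24% of all genes were.

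Markers of other cells moved with the challenge as well, and their part in the result was not tested. Shares of all genes for these counts are 10.4% higher and 11% lower. Of 5 erythroid genes tested, 5 rose, and their summed signal relative to DMSO was 5.56 to 6.42 in BA+rapamycin, above the 2.08 to 4.32 of BA+DMSO. That erythroid sum was 1.46 to 3.42 in rapamycin, where the DMSO arrays themselves ran from 0.33 to 1.53. T cell markers gave 4 of 8 higher, with a summed signal of 2.82 to 4.93 in BA+DMSO. Thy1, which stromal cells also make, is the brightest probe of that sum and rose by 2.16 (adjusted p = 0.000917). Cd2 (2.09, adjusted p = 0.00429), Cd3e (0.92, adjusted p = 0.0235) and Cd4 (0.89, adjusted p = 0.0278) were called as well. Cd3d (-0.52), Cd3g (0.093), Lck (-0.35) and Cd5 (-0.79) did not pass. B cell markers gave 1 of 5 higher and 2.28 to 3.81, and neutrophil markers 2 of 6 and 0.69 to 2.67. Without probes that share sequence with 5 or more other gene names these sums were 2.68 to 5.28 over 4 B cell genes and 2.03 to 3.97 over 5 neutrophil genes. Blnk (2.26, adjusted p = 0.000641) was the B cell gene called and the brightest of those 4. Cd79b (1.33, adjusted p = 0.0683), Cd22 (0.92, adjusted p = 0.268), Cd79a (0.23) and Pax5 (-0.43) did not pass. Dendritic cell markers gave 2 of 5 higher. Natural killer and mast cell markers gave 0 of 2 and 0 of 4, endothelial markers 2 of 8, fibroblast markers 3 of 8 and adipocyte markers 1 of 7, while smooth muscle markers gave 0 of 10 higher and 2 lower. The summed signal of the 10 macrophage genes, relative to DMSO in the same way, was 2.31 to 4.56 in BA+DMSO, 3.07 to 3.19 in BA+rapamycin and 1.27 to 1.52 in rapamycin with Itgam by its other probe. With the repeat probe, whose signal outweighs the others in that sum, the ranges were 1.46 to 3.90, 2.99 to 3.94 and 0.98 to 1.16.

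The genes whose pattern over the 12 arrays was closest to the mean pattern of the members other than Csf1, among 11497 candidates above background on all arrays, were Fxyd6 (r = 0.997), Rac2 (0.994), Gmfg (0.994), Nckap1l (0.994), Fcer1g (0.993), Ptpn6 (0.992), AF251705 (0.992) and Lilrb4 (0.992). With the repeat probe of Itgam in that mean, 6 of these 8 were named again. Rac2 is a small GTPase of blood cells, Fcer1g a signalling chain of Fc receptors and Ptpn6 a phosphatase that binds inhibitory receptors, and the likeness is a description over 12 arrays.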

How the data were processed

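RNA of 12 mouse aortas was labelled with Cy3 and hybridised to 1-colour Agilent arrays. Per the file headers, the authors read the images with Feature Extraction 10.7.1.1 (9.5.1.1 in the submitters' processing notes) on mm9 (NCBI37), which gave a background-subtracted processed signal, raw spot and background intensity, and 0 or 1 flags per spot. The deposited matrix holds quantile-normalized intensity, as its values show, and was used as an alternative.

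Samples were grouped by their treatment labels. Of 62976 spots, 3671 controls and those with outlier flags were left out, repeated spots were averaged, and values were taken as log2 minus the 75th percentile of the array. Probes entered the tests where a share of 0.5 of their spots passed the background flag on every array of 1 group or more (27801 probes). A single limma 3.58.1 model in R 4.3.3 held all 12 arrays, and the number of arrays limits the precision. Tests were two-sided, and a gene was called at a Benjamini-Hochberg adjusted p under 0.05. The brightest probe on average represented its gene, and a list by its counts and median. The 4 list genes with the largest challenge difference among called genes, all colony-stimulating factors, and the 8 genes most like the members were named. The members and lists were chosen with earlier results of these data known. The fit was tested on simulated data.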

Additional observations from a re-analysis of the deposited data

How the results depend on the processing

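Counts of the 10 genes called, with Itgam by its brightest probe, were recomputed under other scalings, filters, models and sample sets. For the challenge 8 genes were called, and 23 of 26 alternatives stayed within 1.5 times. The slide as a fixed block gave 0, array weights gave 0 and the methods' rule gave 5, and leaving out single arrays gave 7 to 10. For the challenge under rapamycin 8 were called, with 4 within 1 slide, 5 with the brightness covariate (5.12% of all genes called higher) and 1 by the methods' rule, and 7 to 9 without single arrays. For rapamycin under challenge the count of 0 became 3 without BA+DMSO replicate 2, with Emr1 and Cd68 lower and Itgam higher by its repeat probe alone (0 to 3 without single arrays), and for the interaction the count of 0 became 2 (0 to 2). For rapamycin alone, array weights gave 1, Csf1r, where 2.76% of all genes were called higher and 2.99% lower (0 to 0 without single arrays). The Itgam repeat probe changed sign in the challenge under rapamycin with the brightness covariate, at -0.062. The cause was not tested, except that the methods' rule asks for a larger fold and that the comparison within 1 slide has fewer arrays. Scaling to the probes above background on all arrays put the median of all genes at 0.12 in both contrasts of BA+rapamycin, from -0.026 under challenge and -0.067 for the challenge under rapamycin. No paired analysis was possible because replicate numbers follow the order of deposition and only name the samples. Some titles share a date, and samples of the same date gave 2 against 2 for rapamycin alone, with 0 called and a median of 0.48, and 1 against 1 for rapamycin under challenge, with no count. No title date was shared between rapamycin and BA+rapamycin, so date and challenge cannot be told apart in the challenge under rapamycin. BA+DMSO replicate 1, the dated array of its group, shared no date with DMSO. The use of the Itgam probe without a repeat, and of the lists without BA+DMSO replicate 2, was chosen after seeing the data. Lyz2 lost its call in the challenge in 6 of 24 alternatives, Ptprc in 3 of 24, and Emr1 lost it in the challenge under rapamycin in 5 of 25. Dim probes near background carry the least precision.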

Other observations

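The second probe of Mpeg1 was not well above background on any DMSO or rapamycin array. Its signal was at least 1.92-fold higher in BA+DMSO than in DMSO, where 1 of 3 arrays measured it, and at least 2.86-fold higher in BA+rapamycin than in rapamycin, where 2 of 3 arrays did. The second probe of Cd68 was well above background on 6 of 12 arrays.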
